A study of Mus musculus with 6 samples.

Results

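The polyamine metabolism genes described here are 10 genes, Odc1, Amd1, Srm, Sms, Oaz1, Oaz2, Azin1, Sat1, Smox and Paox, of the 54838 genes in the count table. The family was chosen by the readout itself, because Srm is among the strongest decreases between AG636 and vehicle, so the differences of the 10 genes in this contrast are given as a description, with no p-value, and where a gene is placed past or short of the threshold of the fit across all genes, that only describes its value. All 10 passed the filter on low counts, which kept 11092 genes. AG636 is an inhibitor of dihydroorotate dehydrogenase (DHODH), the mitochondrial enzyme that oxidises dihydroorotate in de novo pyrimidine synthesis.

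RNA was sequenced from acute myeloid leukemia (AML) cells of the I1DN model, which on a C57BL/6 background carry the genotype IDH1R132H; DNMT3AR882H; NrasG12D, in 3 mice given vehicle and 3 mice given AG636 by oral gavage at 100 mg/kg b.i.d. The alleles were shared by both groups: the model was made by transducing fetal liver stem and progenitor cells with constructs for the mutants, and the resulting tumor cells were transplanted into sublethally irradiated Ptprca recipients. Cells were sorted from bone marrow and spleen as an immature leukemic fraction, named cKit high and CD11b low in one place of the sources and cKit positive and CD11b negative in another, which likewise differ between a single day and several days of treatment, and the organ of each library and the age of the mice are not given there. The 6 libraries held 4634963 to 7906589 counts.

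Polyamines are small, positively charged molecules that bind RNA, DNA and acidic proteins and that dividing cells need for translation. Ornithine is decarboxylated to putrescine, and aminopropyl groups taken from decarboxylated S-adenosylmethionine turn putrescine into spermidine and spermidine into spermine. The pathway is held in balance by antizymes, which bind ornithine decarboxylase and carry it to the proteasome, and by acetylation and oxidation, which turn the higher polyamines back towards putrescine or prepare them for export.

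The sequence at which polyamines act on antizyme synthesis is shown because both antizyme genes were measured here. Translation of an antizyme mRNA reaches the stop codon of a short first reading frame and has to shift frame there to make the full protein, and polyamines promote that shift, so the level of an antizyme mRNA is not the level of the protein. In capitals is the 6-base shift site, a codon followed by the stop codon, within 48 bases read 5′ to 3′ from the GENCODE transcripts on mm10 (GRCm38).
Oaz1, chr10:80828292-80828297 for the capitals, plus strand: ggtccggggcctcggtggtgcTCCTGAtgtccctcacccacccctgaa
Oaz2, chr9:65686269-65686274 for the capitals, plus strand: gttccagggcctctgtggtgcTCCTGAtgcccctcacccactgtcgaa
The 2 windows are coding sequence and share the base at 40 of 48 positions, with the same letters at the shift site.

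Upstream sequence is shown for members that moved together or apart: Odc1 and Amd1 were lower with AG636, Sat1 was higher, and 1 of the 2 Sms windows was the only window of the family with an E-box. The windows hold the 250 bases before the start of transcription, in the direction of the gene, from RefSeq on GRCm38.p6, whose starts can lie apart from those of the GENCODE gene models used for the gene coordinates. Of the 10 members, 8 had an entry, with 10 windows in all, and none was given for Srm or Azin1. Capitals mark, on either strand, the E-box CACGTG, the GC box GGGCGG or CCGCCC, and the ETS core CCGGAA or TTCCGG.
Odc1, chr12:17544623-17544872, plus strand: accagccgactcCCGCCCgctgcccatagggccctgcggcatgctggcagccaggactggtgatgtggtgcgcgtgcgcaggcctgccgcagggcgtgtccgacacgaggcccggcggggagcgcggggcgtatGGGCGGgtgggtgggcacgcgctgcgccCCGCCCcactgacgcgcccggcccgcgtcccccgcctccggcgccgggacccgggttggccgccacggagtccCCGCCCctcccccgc
Amd1, chr10:40302189-40302438, minus strand: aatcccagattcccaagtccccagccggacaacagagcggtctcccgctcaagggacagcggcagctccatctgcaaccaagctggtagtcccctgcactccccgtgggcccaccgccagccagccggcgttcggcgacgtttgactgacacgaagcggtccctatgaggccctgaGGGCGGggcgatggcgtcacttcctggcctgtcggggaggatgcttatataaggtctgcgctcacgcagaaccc
Sms, chrX:157492288-157492537, minus strand: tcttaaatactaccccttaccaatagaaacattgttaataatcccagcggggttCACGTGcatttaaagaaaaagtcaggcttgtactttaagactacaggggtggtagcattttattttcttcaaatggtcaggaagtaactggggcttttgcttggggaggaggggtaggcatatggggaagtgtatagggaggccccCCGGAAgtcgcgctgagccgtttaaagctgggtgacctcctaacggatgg
Sat1, chrX:155216450-155216699, minus strand: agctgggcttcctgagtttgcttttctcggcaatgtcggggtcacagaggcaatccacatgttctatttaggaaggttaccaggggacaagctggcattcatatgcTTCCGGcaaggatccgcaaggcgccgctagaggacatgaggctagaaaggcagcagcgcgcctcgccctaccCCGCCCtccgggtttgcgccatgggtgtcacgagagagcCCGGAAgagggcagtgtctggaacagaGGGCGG
The E-box, a sequence that MYC with MAX can bind, lay 196 bases before the start of Sms in the window printed and was in 6.02% of all 32851 windows of this length. GC boxes numbered 4 upstream of Odc1, 1 upstream of Amd1 and 2 upstream of Sat1, and 32.7% of all windows held at least 1. Among members not printed, Smox had 6, Oaz2 3, the Paox windows 1 and 3, and Oaz1 0. GC boxes were thus not particular to the members that moved. The ETS core, in 12.0% of all windows, occurred at 2 places upstream of Sat1, at 1 in the printed Sms window and at 1 upstream of Smox. The second Sms window, chrX:157491369-157491618, held no E-box, 4 GC boxes and 1 ETS core, with 75.2% G and C against 47.2% in the printed one. The Odc1 window was 80.0% G and C, against a median of 52.4% over all windows. These are matches of letters within these windows and no binding was measured.

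Of the 10 genes, 4 were lower with AG636 (Odc1, Amd1, Srm and Azin1), 1 was higher (Sat1) and 5 were short of the threshold, an adjusted p of 0.05 in the quasi-likelihood test of edgeR, adjusted by Benjamini-Hochberg over all genes tested. Over all genes tested, 21.3% passed, with 11.0% lower and 10.3% higher. Since the contrast chose the family, nothing is read from these counts. Without AG636 mouse 1 or AG636 mouse 3, 2 of the 10 were past it (Odc1 and Srm), and without vehicle mouse 1, 3 were (also Azin1). The values of the 3 vehicle and 3 AG636 mice did not overlap for 7 of the 10 genes, and 41.1% of all genes tested had no overlap. The median log2 fold change (AG636 over vehicle) was −0.37 over the 10 genes, with a range from −1.48 to 0.77, and 0.03 over all genes tested. In RNA from a cell population, fewer cells of a type and less RNA per cell cannot be told apart.

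**Figure D1:**
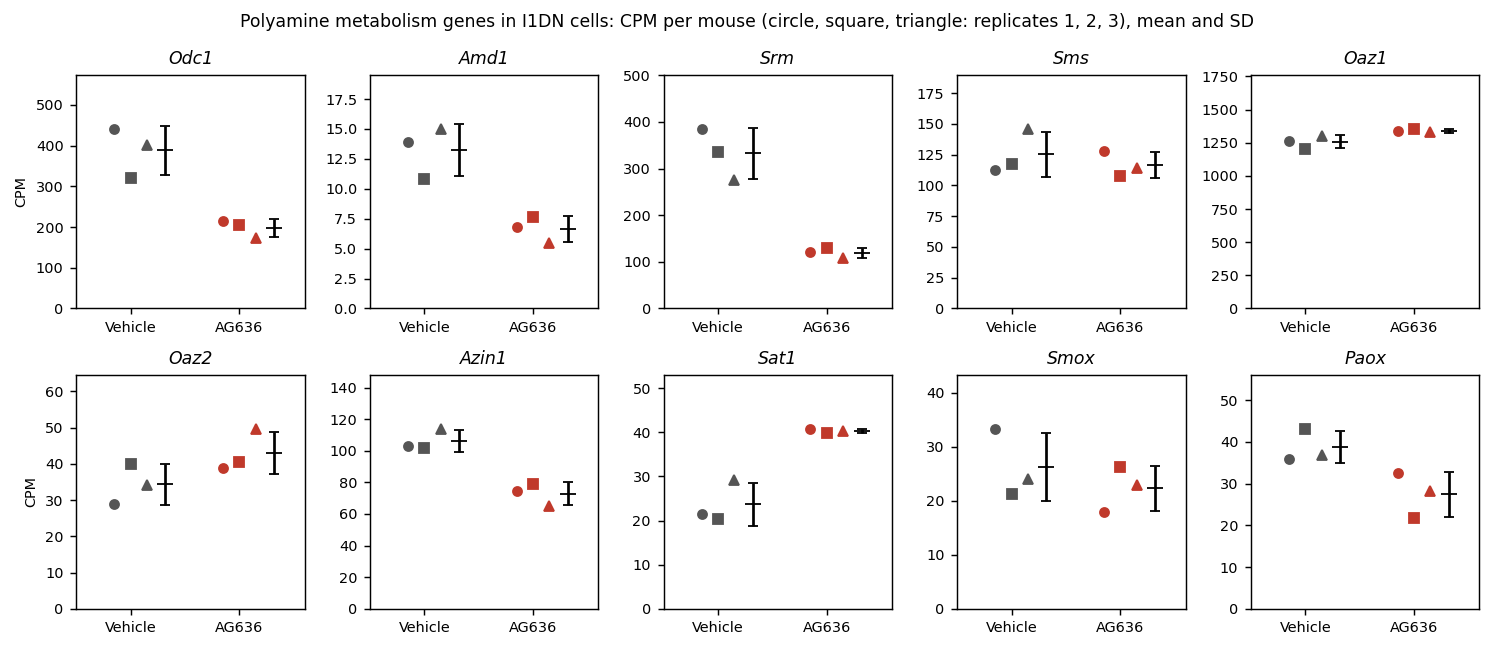
CPM (linear axis from 0) of each polyamine gene in each mouse, with grey symbols for vehicle, red symbols for AG636, and black bars for the mean and SD of 3 mice. Odc1, Amd1, Srm and Azin1 were lower in all 3 AG636 mice than in any vehicle mouse, Sat1 was higher in all 3, and Sms stayed between 108 and 146 CPM in both groups.

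Among the 4 synthesis enzymes, the mRNAs for the step to putrescine, for the aminopropyl donor and for the step to spermidine had log2 fold changes of −0.97, −0.99 and −1.48, and that for the step to spermine had −0.10. The median log2 fold change of the 4 was −0.98. Levels are in CPM, the counts of a gene for each 1000000 counts of its scaled library. CPM counts 3′ tags, about 1 place per transcript, so it does not grow with the length of a gene, and levels of different genes are set side by side on that scale.

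Odc1 (chr12:17544794-17551505, plus strand) encodes ornithine decarboxylase, which makes putrescine and limits the rate of the pathway. It was at 442, 321 and 401 CPM in the vehicle mice and at 214, 206 and 173 CPM in the AG636 mice. The lowest vehicle mouse was well above the highest AG636 mouse, and the vehicle mice were spread more widely. The means were 388 ± 61.3 and 197.5 ± 21.9 CPM (SD, n = 3 each), a vehicle level 1.96 times that with AG636 and a log2 fold change of −0.97 (SE 0.15). With vehicle, the Odc1 level was above that of 96.1% of the genes tested.

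Amd1 (chr10:40287458-40302186, minus strand) encodes S-adenosylmethionine decarboxylase, which forms the aminopropyl donor for both later steps. It was at 13.9, 10.9 and 15.04 CPM with vehicle and at 6.80, 7.63 and 5.47 CPM with AG636. The groups did not overlap, at a level far lower than that of Odc1. The means were 13.3 ± 2.17 and 6.63 ± 1.09 CPM (SD, n = 3 each), a log2 fold change of −0.99 (SE 0.25). Its 331 counts over the 6 libraries were the fewest of the family, and its standard error was the widest. The near copy Amd2 held 35 counts and the Amd pseudogenes 0 to 11 each, so reads that could be assigned to either are uncertain.

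Srm (chr4:148591503-148594993, plus strand) encodes spermidine synthase. It was at 386, 335 and 276 CPM with vehicle and at 122, 129 and 107 CPM with AG636. The vehicle mice were spread more widely than the AG636 mice, and every vehicle value was more than double any AG636 value. The means were 332 ± 55.0 and 119 ± 10.8 CPM (SD, n = 3 each), a fold of 2.79 and a log2 fold change of −1.48 (SE 0.15). This decrease was the value that selected the family: counted from the lowest log2 fold change, Srm was number 118 of 11092, Amd1 372, Odc1 399 and Azin1 1388.

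Sms (chrX:157443855-157492287, minus strand) encodes spermine synthase, which uses the product of Srm. It was at 113, 117 and 146 CPM with vehicle and at 128, 108 and 114 CPM with AG636. The groups overlapped, with the highest value in a vehicle mouse and the lowest in an AG636 mouse. The log2 fold change was −0.10 (SE 0.14), with means of 125 ± 18.2 and 117 ± 10.4 CPM (SD, n = 3 each).

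Ratios of counts within a library do not depend on how libraries are scaled. The Srm to Sms ratio was 3.42, 2.86 and 1.89 in the vehicle mice and 0.950, 1.20 and 0.939 in the AG636 mice, with means of 2.72 ± 0.777 and 1.03 ± 0.145 (SD, n = 3 each). With vehicle the spermidine synthase mRNA was thus the more abundant of the pair in every mouse, and with AG636 the pair were at about the same level. The ratio carries the decrease of Srm that selected the family, so it is a description.

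**Figure D2:**
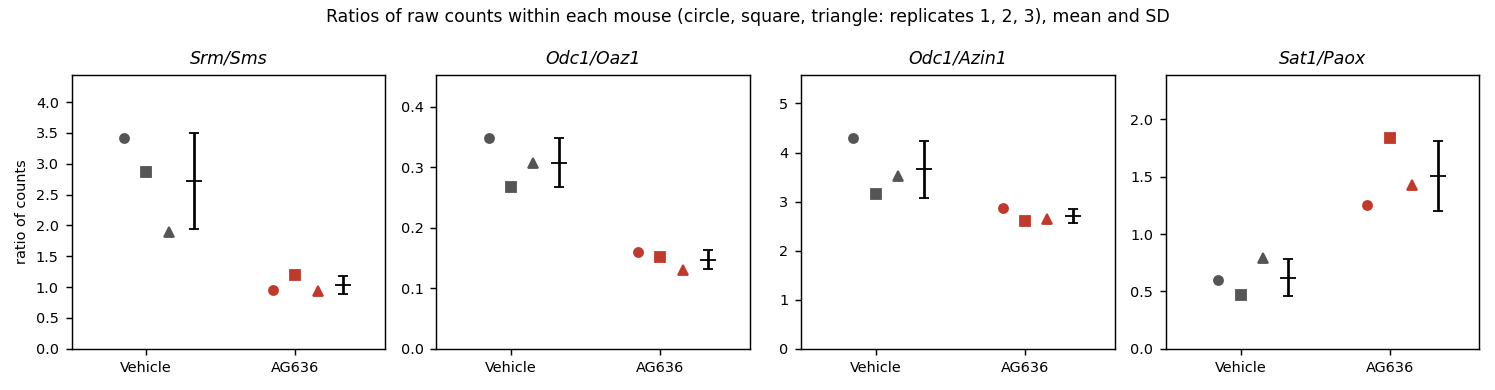
Ratios of raw counts of 2 polyamine genes within each mouse (linear axes from 0), with grey symbols for vehicle, red symbols for AG636, and black bars for the mean and SD of 3 mice. Srm to Sms, Odc1 to Oaz1 and Odc1 to Azin1 were lower in every AG636 mouse than in any vehicle mouse, and Sat1 to Paox was higher in every AG636 mouse.

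The antizyme mRNAs had log2 fold changes of 0.09 and 0.32, and that of the antizyme inhibitor had −0.54. Oaz1 (chr10:80826656-80829290, plus strand), the main antizyme, was the most abundant mRNA of the family in all 6 mice. It was at 1265, 1206 and 1300 CPM with vehicle and at 1336, 1357 and 1330 CPM with AG636, means of 1257 ± 47.6 and 1341 ± 14.4 CPM (SD, n = 3 each). The AG636 values lay just above the vehicle values with no overlap, and the log2 fold change was 0.09 (SE 0.09). Oaz1 varied least between vehicle mice, with a coefficient of variation of 3.79% against a median of 14.99% over the genes tested.

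Oaz1 made up 51.8%, 54.4% and 54.7% of the counts of the 10 genes in the vehicle mice and 66.4%, 67.4% and 68.7% in the AG636 mice. Its share was higher in every AG636 mouse, while its own level was close in the groups and those of Odc1 and Srm, the next most abundant with vehicle, were lower. The Odc1 to Oaz1 ratio, which sets the mRNA of the target beside that of its antizyme, was 0.349, 0.267 and 0.308 with vehicle and 0.160, 0.152 and 0.130 with AG636. Its mean was 0.308 ± 0.0414 with vehicle and 0.147 ± 0.0156 with AG636 (SD, n = 3 each).

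Oaz2 (chr9:65668001-65690300, plus strand), a second antizyme of many tissues, was far less abundant. It was at 28.9, 40.0 and 34.1 CPM with vehicle and at 38.9, 40.4 and 49.7 CPM with AG636, means of 34.3 ± 5.58 and 43.0 ± 5.83 CPM (SD, n = 3 each). The second vehicle mouse lay inside the AG636 range, and the log2 fold change was 0.32 (SE 0.18). The third antizyme gene, Oaz3, known from testis, had 6 counts over the 6 libraries and was not tested.

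Azin1 (chr15:38487427-38519266, minus strand) encodes an antizyme inhibitor, a relative of ornithine decarboxylase without its activity that binds antizyme and so frees the enzyme. It was at 103, 102 and 114 CPM with vehicle and at 74.6, 79.0 and 65.1 CPM with AG636. Each vehicle mouse was above every AG636 mouse, in means 106 ± 6.70 against 72.9 ± 7.08 CPM (SD, n = 3 each), a fold of 1.46 and a log2 fold change of −0.54 (SE 0.13). The Odc1 to Azin1 ratio was 4.30, 3.16 and 3.52 with vehicle and 2.87, 2.61 and 2.65 with AG636. The ratios did not overlap, so the level of Odc1 was lower by a larger factor than that of Azin1.

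The 3 catabolic enzymes did not move as 1 group. Sat1 had a log2 fold change of 0.77, and Smox and Paox, the oxidases, had −0.23 and −0.50. Sat1 (chrX:155213132-155216449, minus strand) encodes the acetyltransferase that marks spermidine and spermine for oxidation or export. It was at 21.6, 20.3 and 29.3 CPM with vehicle and at 40.8, 39.8 and 40.2 CPM with AG636. The AG636 mice were within about 1 CPM of one another, above all vehicle mice, and the means were 23.7 ± 4.85 and 40.3 ± 0.493 CPM (SD, n = 3 each), a log2 fold change of 0.77 (SE 0.18).

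Smox (chr2:131491496-131525922, plus strand) encodes spermine oxidase, which turns spermine directly into spermidine. It was at 33.3, 21.3 and 24.0 CPM with vehicle and at 17.8, 26.2 and 22.8 CPM with AG636. The groups overlapped, and the log2 fold change was −0.23 (SE 0.22). Its coefficient of variation between vehicle mice, 24.0%, was the largest of the family.

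Paox (chr7:140115799-140137224, plus strand) encodes the peroxisomal oxidase of acetylated polyamines, the step after Sat1. It was at 36.0, 43.2 and 37.0 CPM with vehicle and at 32.5, 21.7 and 28.1 CPM with AG636. The values did not overlap, and the log2 fold change was −0.50 (SE 0.19). Exons of Paox overlap those of Echs1 on the opposite strand, which held 1935 counts against 1116 for Paox, and whether the counting used strand is not given in the sources used here, so the Paox values are uncertain. The Sat1 to Paox ratio was 0.599, 0.470 and 0.791 with vehicle and 1.25, 1.84 and 1.43 with AG636.

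**Figure D3:**
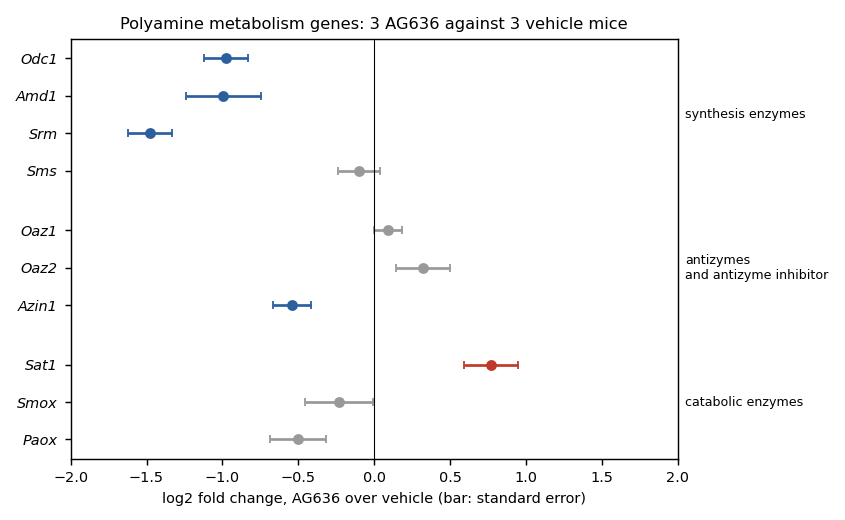
Log2 fold change of each polyamine gene, AG636 over vehicle, from the fit on 3 mice a group, with bars of 1 standard error (blue lower and red higher past the threshold, grey short of it, as a description). Odc1, Amd1 and Srm lay near or below −1, Sms and Oaz1 lay near 0, and Sat1 lay at 0.77.

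The sort was checked against marker genes, since the libraries of the groups differed in markers of neutrophils and of monocytes and macrophages. Kit, which encodes the receptor used in the gate, was at 43.0, 31.7 and 40.8 CPM with vehicle and at 46.1, 37.2 and 44.6 CPM with AG636, and Itgam, which encodes CD11b, was present in all libraries at 12.1, 18.3 and 26.9 CPM with vehicle and 59.9, 31.2 and 41.0 CPM with AG636. Neutrophil markers summed to 1019 to 2347 CPM with vehicle and 2848 to 5858 CPM with AG636, with 6 of 7 higher, and monocyte and macrophage markers to 61.0 to 97.7 and 152 to 232 CPM, with 3 of 6 higher. Immature AML markers (1561 to 3289 and 1092 to 2963 CPM, 1 of 5 higher), erythroid markers (1224 to 3247 and 1583 to 2551 CPM, 2 of 6 lower) and megakaryocyte markers (771 to 1200 and 1041 to 1692 CPM, 2 of 4 higher) overlapped in their sums. B cell markers (5.51 to 14.2 and 14.0 to 19.1 CPM), T cell markers (0.533 to 2.999 and 0.847 to 3.38 CPM) and stromal and endothelial markers (105 to 176 and 150 to 244 CPM, with Cdh5 at 0) held 2 genes that passed the filter on low counts, and neither passed the test. Most of the immature AML sum was Mpo in every mouse, and the 1 gene of that list that was higher was Ptprc. Most of the B cell sum was Cd79b, and most of the stromal and endothelial sum was Pecam1. Col1a1, Col1a2 and Cxcl12 had 13, 3 and 1 counts over all libraries.

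Marker RNA from other cells in the sort cannot be told apart here from marker RNA made in the leukemic cells themselves. Its part in the differences of the polyamine genes was not tested. For Sat1, the AG636 mouse with the highest neutrophil sum, 5858 CPM, had 40.8 CPM of Sat1, and the mouse with 2848 CPM had 40.2 CPM. AG636 mouse 2, with a sum of 3036 CPM, had 39.8 CPM. Sat1 had 192, 193 and 213 counts in AG636 mice 1, 2 and 3, and the spread of its levels was narrower than counting error. Vehicle mice 1 and 2 had neutrophil sums of 1019 and 2081 CPM, with Sat1 at 21.6 and 20.3 CPM. Among vehicle mice, the highest Sat1 level, 29.3 CPM, was in the mouse with the highest neutrophil sum, 2347 CPM. Srm was at 276 CPM in that mouse, its lowest value with vehicle. The erythroid sum was also lowest there. It was 3247, 2068 and 1224 CPM in vehicle mice 1, 2 and 3, with Srm at 386, 335 and 276 CPM. Whether the neutrophil or the erythroid sum has a part in the level of Srm was not tested.

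**Figure D4:**
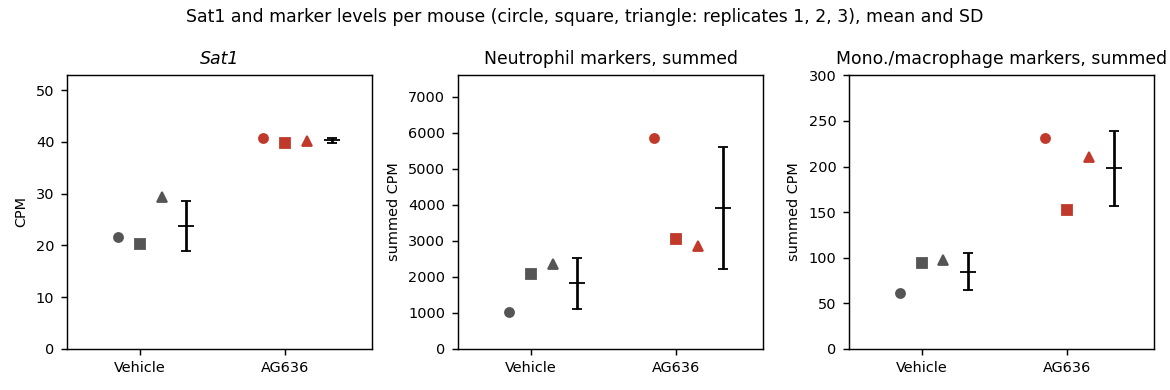
Sat1 in CPM and the summed CPM of 7 neutrophil and of 6 monocyte and macrophage markers in each mouse (linear axes from 0), with grey symbols for vehicle, red symbols for AG636, and black bars for the mean and SD of 3 mice. Sat1 was at 39.8 to 40.8 CPM in the AG636 mice, a spread narrower than counting error, and the neutrophil sum in the same mice ran from 2848 to 5858 CPM.

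Across the 6 libraries, Srm was most like Nudt5 (Pearson r = 0.999 of log2 CPM), Ruvbl1, Mospd3, Uck2 and Nhp2, and Odc1 was most like Slc52a2, Iars, Dctd, Tstd3 and Phrf1. Odc1 was number 528 in likeness to Srm, with r = 0.95, and Amd1 was number 62 in likeness to Odc1, with r = 0.98. The 6 points fall into the 2 groups, so a gene that differs between them in the same direction as Srm and Odc1 tends to have a high r, and the order is a description.

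Of 48 other genes of the pathway, 27 were tested, and of these 12 fell with AG636, 1 rose and 14 did not pass the test, where 11.0% of all genes tested were lower and 10.3% higher. The median log2 fold change of the 27 was −0.47, beside 0.03 over all genes tested, and the groups did not overlap for 17, against 41.1% of all genes tested. These lists too were chosen with results of the contrast known, and whether they differ from other genes was not tested. Their adjusted p-values are from the same quasi-likelihood fit in edgeR over all genes tested. Without AG636 mouse 3, 4 of the 13 passed, and Mat2a, Slc7a1 and Eif5a were the 3 that passed in every fit without 1 mouse, while Atp13a2 and Adi1 passed in none of those fits.

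Supply of ornithine and arginine had 5 tested genes, of which 3 fell (11.0% of all genes tested were lower). Gatm, which transfers the amidino group of arginine towards creatine and yields ornithine, fell from 34.8 to 13.8 CPM (log2 fold change −1.34, SE 0.32, adjusted p = 0.019). Aldh18a1, which makes the precursor of ornithine and proline from glutamate, fell from 39.7 to 22.0 CPM (−0.85, SE 0.22, adjusted p = 0.026). Ass1, of arginine synthesis, fell from 29.0 to 18.1 CPM (−0.69, SE 0.19, adjusted p = 0.029). The 2 others tested were Oat, the aminotransferase that links ornithine to glutamate, at −0.36 (adjusted p = 0.12), and Asl, at 0.17 (adjusted p = 0.69). The arginases that make ornithine from arginine were scarce, with 5 counts for Arg1 and 14 for Arg2 over the 6 libraries.

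S-adenosylmethionine is the substrate of Amd1, and of 7 tested genes for its supply and use 1 fell, a share close to the 11.0% of all genes tested. Mat2a, the catalytic subunit of the synthetase outside liver, was at 782, 759 and 708 CPM with vehicle and at 490, 424 and 470 CPM with AG636. Its groups stood well apart, with a log2 fold change of −0.70 (SE 0.11, adjusted p = 0.0041). Mat2b, the regulatory subunit, was at 0.17 (adjusted p = 0.40). Over the 7 genes, 5 log2 fold changes were below 0 and 2 above, with a median of −0.43.

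Each aminopropyl transfer by Srm or Sms leaves methylthioadenosine, which the salvage pathway returns to methionine. All 5 salvage genes were tested and 3 fell, beside 11.0% of all genes tested. Mtap, the phosphorylase of the first step, fell from 84.8 to 57.1 CPM (−0.57, SE 0.14, adjusted p = 0.021), Enoph1 from 31.8 to 19.3 CPM (−0.71, SE 0.19, adjusted p = 0.029) and Adi1 from 38.7 to 26.4 CPM (−0.55, SE 0.16, adjusted p = 0.039). Mri1 was at 0.18 (adjusted p = 0.43) and Apip at −0.04 (adjusted p = 0.87).

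Spermidine, the product of Srm, is also used to turn a lysine of the translation factor eIF5A into hypusine, and 2 of 3 tested genes of that step fell, beside 11.0% of all genes tested. Eif5a itself was abundant, at a mean of 2195 ± 151 CPM with vehicle and 1509 ± 166 CPM with AG636 (SD, n = 3 each), and fell by 0.54 on the log2 scale (SE 0.11, adjusted p = 0.012). Dhps, which carries out the first step, fell from 26.7 to 15.1 CPM (−0.82, SE 0.23, adjusted p = 0.030), with the limit that its exons overlap Wdr83 on the opposite strand (1008 counts against 709). Dohh, the hydroxylase of the second step, was at −0.41 (adjusted p = 0.090).

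Of 6 tested transport genes, 3 fell and 1 rose, beside 11.0% and 10.3% of all genes tested. Slc7a1, a carrier of arginine, lysine and ornithine, fell from 111 to 51.0 CPM (−1.12, SE 0.19, adjusted p = 0.0052). Slc25a15, the mitochondrial ornithine carrier, fell from 24.6 to 14.6 CPM (−0.76, SE 0.19, adjusted p = 0.022), and Slc3a2, the heavy chain of several amino acid carriers, fell from 270.0 to 196 CPM (−0.46, SE 0.11, adjusted p = 0.020). Atp13a2, which exports polyamines from lysosomes to the cytosol, rose, from 91.6, 127 and 130 CPM to 147, 158 and 203 CPM (0.55, SE 0.17, adjusted p = 0.047). Its relative Atp13a3 was at −0.39 (adjusted p = 0.16) and Slc22a3, an organic cation carrier, at 0.42 (adjusted p = 0.25). Of the relatives of the members, Azin2 alone was tested, at −0.51 (SE 0.36, adjusted p = 0.34).

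**Figure D5:**
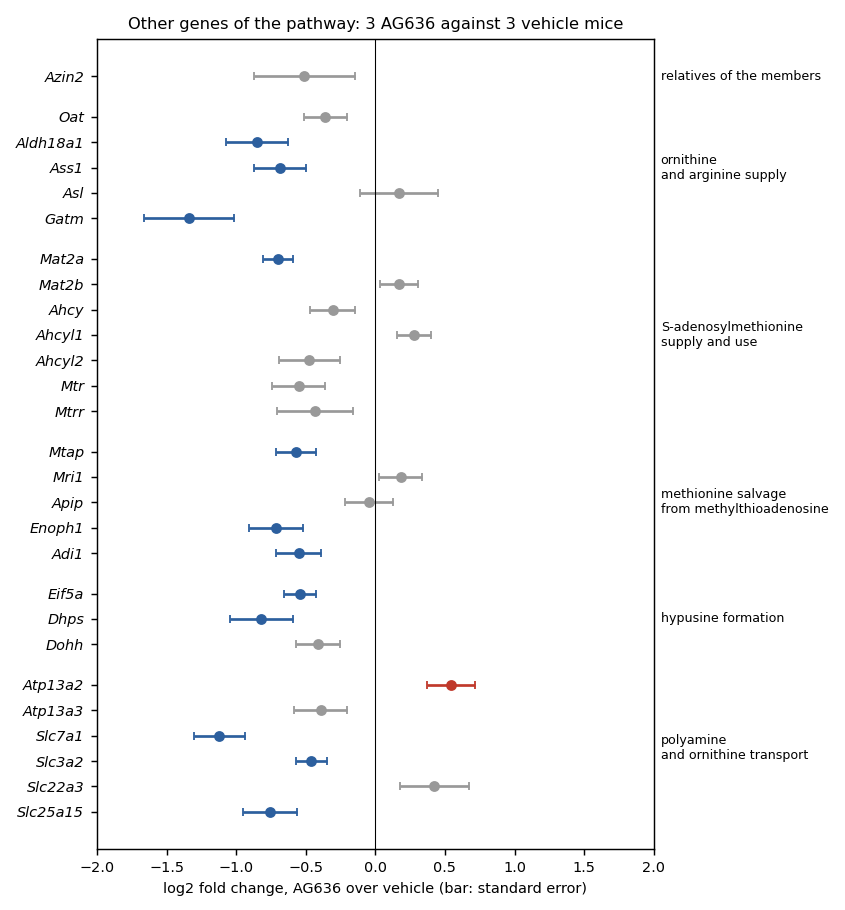
Log2 fold change, AG636 over vehicle, of the 27 tested genes around the polyamine family, by role, with bars of 1 standard error from the fit on 3 mice a group (blue fell, red rose, grey did not pass an adjusted p of 0.05). Slc7a1 and Gatm lay below −1, and Atp13a2, the 1 gene that rose, lay at 0.55.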

How the data were processed

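Gene counts were deposited as 1 table of whole numbers for 54838 Ensembl genes in 6 libraries, 3 vehicle and 3 AG636. The authors made these counts from single-end QuantSeq 3′ reads on mm10 (GRCm38) with cutadapt (1.9.1), HISAT2 (2.0.4) and featureCounts of Subread (1.5.0-p3), per the submitters' processing notes; the study's methods name other versions of some tools. Annotation release, strand and the handling of reads with several places are not given in the sources used here. Each replicate was a separate mouse; pairs of libraries in a group differed by more than counting noise (chi-square per degree of freedom 6.68 to 15.7), so all were kept.

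Symbols and coordinates came from GENCODE M21 (99.8% of IDs matched, 98.7% with the same start and end). In edgeR (4.0.16, R 4.3.3), filterByExpr with 3 a group (count minimum 10, total minimum 15) kept 11092 genes. TMM factors (0.953 to 1.04), the quasi-likelihood test on all 6 libraries with no covariate and Benjamini-Hochberg adjustment over all genes tested followed. The threshold was an adjusted p of 0.05. CPM are counts for each 1000000 of the TMM-scaled library; over the genes tested the median standard error was 0.20 (log2), and a floor of 3 counts equals 0.392 to 0.637 CPM, counting error only. The alternatives were DESeq2 (1.42.0), limma-voom (3.58.1), 2 other scalings, 2 filters, 2 thresholds, the replicate block and each mouse left out. The fit was tested on simulated data.

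The members and lists were chosen with earlier results of these data known. All 10 members are named; other pathway genes are named where they passed the test, where their list had under 6 tested genes, or, with a few untested relatives and non-significant neighbours, to complete a step, these chosen after their values were seen. The 5 genes most like Srm and Odc1 were taken by Pearson r of log2 CPM with a prior count of 2.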

Additional observations from a re-analysis of the deposited data

How the results depend on the processing

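No polyamine gene changed direction under any of 13 refits (4 models or scalings, 2 filters, the replicate block and 6 fits without 1 mouse). All refits use the contrast that chose the family, so the polyamine genes past a threshold in this section are a description only. Srm ran from −1.62 to −1.38, Odc1 from −1.10 to −0.88, Amd1 from −1.14 to −0.87, Azin1 from −0.61 to −0.45 and Sat1 from 0.66 to 0.92 on the log2 scale. At an adjusted p of 0.01, 2 polyamine genes passed instead of 5 (Srm and Odc1), 2 other pathway genes instead of 13, and 556 genes instead of 2368. With a fold of at least 1.5 also asked for, 8 other pathway genes passed (Mtap, Atp13a2, Eif5a, Adi1 and Slc3a2 were lost), with 4 polyamine genes (Azin1 was lost). Without 1 mouse in turn, 2 to 5 polyamine genes passed, 4 to 11 other pathway genes, and 851 to 2311 of all genes. The polyamine calls lost without 1 mouse were those of Sat1 (without vehicle mouse 1 or 2, or AG636 mouse 1 or 3), Amd1 (without vehicle mouse 1, or AG636 mouse 1 or 3) and Azin1 (without AG636 mouse 1 or 3), with 3 polyamine genes left without vehicle mouse 1 and 2 without AG636 mouse 1 or 3; of the other pathway genes 6, 7, 5 and 4 passed without vehicle mouse 1, vehicle mouse 2, AG636 mouse 1 and AG636 mouse 3, fits with fewer samples. Scaled by library size alone, 913 genes were lower and 1483 higher, against 1222 and 1146, and the median of all genes moved from 0.03 to 0.12; the same 5 polyamine genes passed.

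The shared replicate numbers are of different mice. Deviations of same-numbered mice had correlations of −0.06, −0.18 and 0.22, and those of differently numbered mice ran from −0.38 to 0.36. With 3 mice a group, these values show no pairing but cannot exclude processing shared by replicate number. With the replicate block, 1960 genes passed, with the same 5 polyamine genes and 12 other pathway genes (Adi1 and Aldh18a1 were lost and Mtr was gained). Amd1, with 331 counts, is the member whose precision depth limits most. Protein, enzyme activity and polyamine levels were not measured in these libraries.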
